A study of Mus musculus with 5 samples.

Results

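The 10 genes described here encode proteins best known from skeletal muscle: the fast myosin heavy chains Myh1, Myh2 and Myh4, the developmental heavy chains Myh3 and Myh8, the light chains Mylpf and Myl1, the calcium buffer parvalbumin (Pvalb), alpha-actinin 3 (Actn3) and muscle creatine kinase (Ckm). They were taken by gene symbol from the 40624 genes of the deposited count table, and each symbol matched 1 row. All 10 passed the filter on low counts, so every one was tested. RNA came from atria of C57BL/6 mice at postnatal day 1. The 3 control libraries were SLN-Cre; Nkx2-5-flox/+ and the 2 mutant libraries SLN-Cre; Nkx2-5-flox/flox, so all animals carried the Cre and the controls had also lost 1 Nkx2-5 allele where it was active. The Cre is driven by Sln, the gene of sarcolipin, which is active in atrial muscle cells, and other cells of the tissue keep Nkx2-5. How many animals went into a library, and whether any were pooled, is not stated in the labels, and p-values reflect only the spread among these 5 libraries, which may be technical.

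Striated muscle contracts when myosin heavy chains, each carrying an essential and a regulatory light chain, pull on actin filaments anchored at Z-discs by alpha-actinins. Fast skeletal fibres add parvalbumin, which binds calcium in the cytosol and speeds relaxation, and creatine kinase, which regenerates ATP from phosphocreatine. The heart builds its thick filaments mainly from Myh6, Myh7 and cardiac light chains, and its Z-discs from Actn2. It also uses Ckm, whereas Pvalb, Actn3 and the fast heavy chains are not usual components of the atrium. Nkx2-5 is a homeodomain transcription factor needed for the identity of heart muscle cells.

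Reads counted in genes numbered 58501214 to 60899334 per control library, 78841494 in mutant 5 and 69648013 in mutant 7. Nkx2-5 stood at 71.3 to 76.8 CPM (reads of a gene per 1e6 reads of the library, scaled by TMM) in controls and at 5.79 and 5.21 CPM in mutants 5 and 7, so the targeted gene was low in each library labelled mutant. Each group held libraries of both sexes, as called from Xist and Y-linked expression. If a library was pooled, this call would not give the sex of each animal.

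The 5 skeletal heavy chains are close copies of each other, which bears on every value given for them. Myh3, Myh2, Myh1, Myh4 and Myh8 lie in this order on the plus strand of chromosome 11. Between the coding sequences of the GENCODE vM21 transcripts, identity ran from 80.2% for Myh3 against Myh1 to 91.0% for Myh2 against Myh1. The 60-base stretch of the coding sequence that differs most is shown first, because reads from such a stretch can be assigned to 1 gene. Capitals mark positions at which the 5 genes are not all alike, and 22 of 60 bases are shared by all. The stretch lies in coding exon sequence, at chr11:67089064-67089123 for Myh3, chr11:67181281-67181340 for Myh2, chr11:67209099-67209158 for Myh1, chr11:67248692-67248751 for Myh4 and chr11:67289773-67289832 for Myh8 (GRCm38, all 5 on the plus strand).
Myh3: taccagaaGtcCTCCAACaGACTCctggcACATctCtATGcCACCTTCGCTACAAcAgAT
Myh2: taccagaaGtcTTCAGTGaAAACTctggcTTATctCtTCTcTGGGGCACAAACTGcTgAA
Myh1: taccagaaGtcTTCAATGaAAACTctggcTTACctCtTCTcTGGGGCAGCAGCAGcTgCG
Myh4: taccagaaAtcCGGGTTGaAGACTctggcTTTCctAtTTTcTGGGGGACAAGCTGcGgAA
Myh8: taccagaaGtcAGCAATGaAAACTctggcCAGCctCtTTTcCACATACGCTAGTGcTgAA

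The most conserved stretch shows the opposite case, with 59 of 60 bases shared by all 5 genes. It is also coding, at chr11:67094747-67094806 for Myh3, chr11:67189592-67189651 for Myh2, chr11:67215191-67215250 for Myh1, chr11:67253427-67253486 for Myh4 and chr11:67298618-67298677 for Myh8 (GRCm38). Myh2, Myh1, Myh4 and Myh8 are identical there, and the capital marks the base at which Myh3 differs.
Myh3: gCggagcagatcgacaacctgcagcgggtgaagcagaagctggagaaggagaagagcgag
Myh8, Myh2, Myh1 and Myh4: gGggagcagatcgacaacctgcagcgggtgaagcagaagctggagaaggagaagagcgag

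Windows of 50 bases were used to ask how much of each coding sequence also occurs in a transcript of another gene. The shared part was 31.6% for Myh1, 28.6% for Myh2, 22.7% for Myh8, 19.6% for Myh4 and 4.99% for Myh3. It was 0% for Pvalb and Mylpf and 0.0754% for Actn3. For Ckm it was 25.7%, all of it with A930016O22Rik, an antisense gene of its own locus. For Myl1 it was 47.0%, all with the processed pseudogene Mylf-ps. Counts of the heavy chains, Ckm and Myl1 could thus be shifted by how reads with several possible origins were handled. The deposited table lists 0 reads in its entry for alignments that are not unique, in all 5 libraries, so it does not show what was done with them. Pvalb, Actn3 and Mylpf are nearly free of this limit.

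Promoter sequence is shown for Pvalb, the gene with the largest change, and for Ckm, the most abundant gene of the group. Both are from RefSeq (GRCm38.p6) and run from 250 bases before to 50 bases after an annotated start. Of the 10 genes, 9 had an entry there, and Pvalb had 2 start sites, of which the first is shown. The search was for the E-box CANNTG, which the myogenic factors bind, and for AAGTG, the core of the sequence bound by Nkx2-5, both on either strand. A longer form, TNAAGTG, was added after the Pvalb sequence was seen. Capitals mark matches to any of them (CACTT is AAGTG on the other strand), and overlapping matches are joined. The Pvalb sequence is chr15:78206351-78206650, minus strand, and the Ckm sequence is chr7:19410844-19411143, plus strand.
Pvalb: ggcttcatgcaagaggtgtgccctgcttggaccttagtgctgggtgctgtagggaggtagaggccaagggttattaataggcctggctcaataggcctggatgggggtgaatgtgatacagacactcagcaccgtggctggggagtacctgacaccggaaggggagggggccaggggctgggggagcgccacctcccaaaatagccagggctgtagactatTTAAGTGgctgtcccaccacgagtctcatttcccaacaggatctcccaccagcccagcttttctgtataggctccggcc
Ckm: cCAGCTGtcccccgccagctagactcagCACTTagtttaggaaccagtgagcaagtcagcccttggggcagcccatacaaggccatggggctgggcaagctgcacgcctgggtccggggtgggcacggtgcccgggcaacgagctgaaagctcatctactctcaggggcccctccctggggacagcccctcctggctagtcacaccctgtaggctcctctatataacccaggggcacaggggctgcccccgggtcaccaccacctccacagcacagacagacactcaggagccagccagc

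The Pvalb sequence held 1 AAGTG, in the longer form TNAAGTG, and 0 E-boxes. That of Ckm held 1 of each. Of all 32851 promoters of this length in the table, 46.4% held AAGTG, 11.5% held TNAAGTG and 72.3% held an E-box, so such matches are common and are given as a description. Among the other sequences, AAGTG was found at the second Pvalb start and in Myh3, Myh8 and Myh4, and was not found in the 300 bases of Myh2, Myh1, Mylpf or Myl1. The second Pvalb start also held 2 E-boxes and 0 TNAAGTG. E-boxes were found in Myh3, Myh8, Myh4, Mylpf and Myl1 as well, and not in Myh2 or Myh1.

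Pvalb and Actn3 fell in mutant atria, and neither the myosin heavy chains nor Myl1 nor Ckm passed the test. Of the 10 genes, 2 were lower and 0 higher at adjusted p under 0.05 (quasi-likelihood test of edgeR, Benjamini-Hochberg adjustment over all 17835 tested genes). Over all tested genes, 3.57% were lower and 3.02% were higher by this rule. At an unadjusted p under 0.05, 3 of the 10 were lower and 0 higher. The share of all tested genes under this unadjusted cut was not counted, here or for the lists below. DESeq2 and limma-voom each gave 2 lower and 0 higher of the 10. Among all genes, DESeq2 called 1028 lower and 919 higher, and limma-voom 542 lower and 446 higher. The median log2 fold change of the 10 was -0.07, beside 0.01 over all tested genes.

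**Figure D1:**
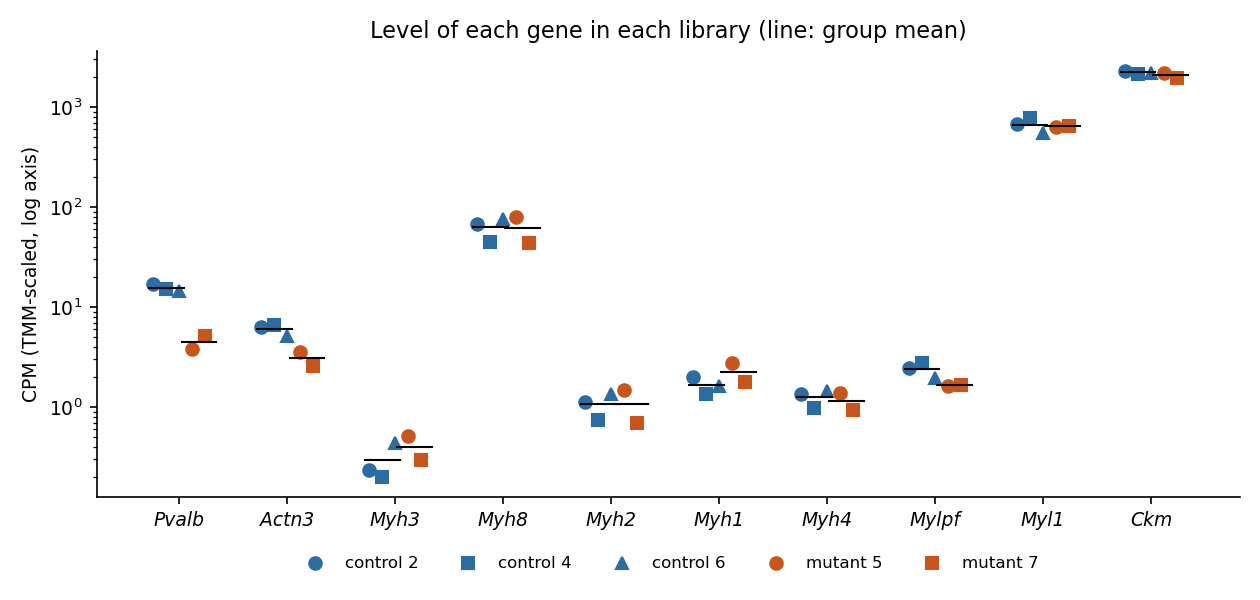
Level of each of the 10 genes in each library, in CPM on a log axis, with circles, squares and triangles for single libraries (blue control, orange mutant) and a black line at each group mean. The mutant libraries lie below all controls for Pvalb, Actn3 and Mylpf, and the groups overlap for the other 7 genes.

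Pvalb, the calcium buffer (ENSMUSG00000005716, listed on chromosome 15 from 78022096 to 78034575, mm9), was the gene that changed most. It stood at 17.0 CPM in control 2, 15.2 in control 4 and 14.6 in control 6, against 3.82 in mutant 5 and 5.19 in mutant 7. The lowest control was well above the higher mutant, and the groups did not overlap. The control mean was 15.6 ± 1.27 CPM (SD, n = 3) and the mutant mean 4.50 ± 0.97 CPM (SD, n = 2), 3.47-fold lower. The log2 fold change was -1.80 ± 0.15 (SE), with a 95% interval from -2.15 to -1.44 and an adjusted p of 0.000687 by edgeR. Raw counts behind these values were 900 to 1005 in controls and 298 and 354 in mutants. Whichever library was left out, the log2 fold change stayed between -2.04 and -1.59 and the call was kept. In the authors' deposited table the pooled values were 8.94 RPKM in controls and 2.52 RPKM in mutants, with an adjusted p of 5.76e-31. In a bulk sample, fewer cells that express a gene and less of its RNA in each cell cannot be told apart.

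Other calcium buffers of this kind were near the limit of detection. Ocm, which encodes the second parvalbumin of the mouse, had at most 2 counts in a library. Calb1 and Calb2, the genes of calbindin and calretinin, had at most 16 and 2 counts. They did not pass the filter and were not tested.

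Actn3, the alpha-actinin of fast fibre Z-discs (ENSMUSG00000006457, chromosome 19, 4861345 to 4877854, mm9), was also lower in mutants. Its level was 6.34 CPM in control 2, 6.60 in control 4 and 5.13 in control 6, against 3.55 in mutant 5 and 2.59 in mutant 7. The groups did not overlap, and control 6 was the lowest control. The means were 6.03 ± 0.78 CPM (SD, n = 3) for controls and 3.07 ± 0.68 CPM (SD, n = 2) for mutants, so Actn3 fell 1.96-fold. Its log2 fold change was -0.97 ± 0.19 (SE; 95% interval -1.40 to -0.54) with an adjusted p of 0.0202 by edgeR. This call was lost without control 2 (adjusted p = 0.0685, edgeR), control 4 (0.0844) or mutant 7 (0.0715), at log2 fold changes of -0.93, -0.90 and -0.77. The authors' deposited table gives an adjusted p of 0.000325. On simulated counts in which each gene had its own spread, the edgeR test made more false calls than its threshold allows, so adjusted p-values this close to the threshold are less sure than they read.

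Actn3 is a small part of the alpha-actinin RNA of the atrium. Per kilobase of deposited length, its share of the RNA of the 4 alpha-actinin genes was 0.573% in control 2, 0.648% in control 4 and 0.466% in control 6, against 0.298% in mutant 5 and 0.228% in mutant 7. Both mutant shares lay below every control share. Actn2, the form of heart muscle, made up 75.7 ± 1.37% (SD, n = 3) in controls and 76.5 ± 1.63% (SD, n = 2) in mutants.

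Mylpf, the regulatory light chain of fast fibres (ENSMUSG00000030672, chromosome 7, 134355275 to 134357709, mm9), was low in all libraries. It stood at 2.44 CPM in control 2, 2.76 in control 4 and 1.93 in control 6, against 1.64 in mutant 5 and 1.66 in mutant 7. Both mutants were below the lowest control, by less than the range among controls. At a log2 fold change of -0.53 ± 0.22 (SE; 95% interval -1.03 to -0.03) the edgeR adjusted p was 0.212, and Mylpf was not called. With Pvalb and Actn3 it was 1 of 3 genes of the 10 whose mutant values all lay below the controls, and 0 of the 10 had mutant values all above. Over all tested genes, 19.2% lay below in this way and 18.6% above. Against Myl7, the regulatory light chain of the atrium, Mylpf was minute: of the RNA of Mylpf, Myl2 and Myl7 per kilobase it made up 0.0099 ± 0.0015% (SD, n = 3) in controls and 0.0071 ± 0.0005% (SD, n = 2) in mutants.

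**Figure D2:**
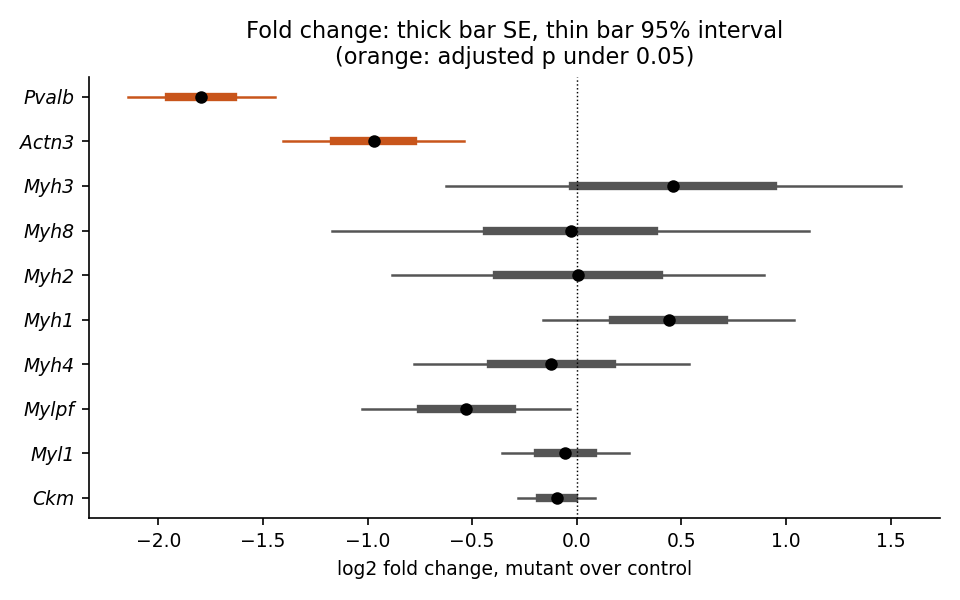
Log2 fold change of mutant over control for each of the 10 genes, with the SE as a thick bar, the 95% interval as a thin bar and the 2 genes at adjusted p under 0.05 in orange. Pvalb at -1.80 and Actn3 at -0.97 are clear of 0. The interval of Mylpf, which was not called, runs from -1.03 to -0.03, and that of Myh8 from -1.17 to 1.11.

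Myh8, the perinatal heavy chain (ENSMUSG00000055775, chromosome 11, 67092359 to 67121985, mm9), was the most abundant of the skeletal heavy chains. Its level was 68.2 CPM in control 2, 44.3 in control 4 and 76.9 in control 6, against 80.3 in mutant 5 and 43.3 in mutant 7. Control 4 and mutant 7 were low and the other 3 libraries high, so the difference between libraries ran across the groups. The means were 63.1 ± 16.9 CPM (SD, n = 3) and 61.8 ± 26.2 CPM (SD, n = 2). The log2 fold change of -0.03 ± 0.40 (SE; 95% interval -1.17 to 1.11) did not pass edgeR's test (adjusted p = 0.981), and the interval is wide enough that a change of up to about 1 on the log2 scale cannot be seen here. Counts were 2637 to 6269, and the coefficient of variation among controls was 26.7%, against 1.62% from counting alone. The deposited length of Myh8 is 14428 bases, while its coding sequence has 5811, and GENCODE vM21 lists retained-intron transcripts among its exons. How much of the Myh8 count comes from spliced mRNA was not tested.

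The adult fast heavy chains were low in every library. Myh1, the heavy chain of IIx fibres (ENSMUSG00000056328), stood at 2.02 CPM in control 2, 1.34 in control 4 and 1.62 in control 6, against 2.73 in mutant 5 and 1.77 in mutant 7. Mutant 5 was the highest library, and mutant 7 lay within the control range. Its log2 fold change was 0.44 ± 0.26 (SE; adjusted p = 0.401, edgeR). Myh2, of IIa fibres (ENSMUSG00000033196), ranged from 0.739 to 1.36 CPM in controls and stood at 1.47 and 0.688 CPM in mutants 5 and 7. The mutant libraries of Myh2 thus lay on either side of the controls, and the log2 fold change was 0.01 ± 0.39 (SE). Myh4, of IIb fibres (ENSMUSG00000057003), ranged from 0.975 to 1.46 CPM in controls, with 1.38 and 0.937 CPM in mutants 5 and 7 and a log2 fold change of -0.12 ± 0.29 (SE). Raw counts of these 3 genes ran from 44 to 213. Neither Myh2 (adjusted p = 0.996, edgeR) nor Myh4 (0.866) passed.

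Myh3, the embryonic heavy chain (ENSMUSG00000020908), was the least abundant of the 10. Counts were 14 in control 2, 12 in control 4, 27 in control 6, 40 in mutant 5 and 20 in mutant 7. At 0.46 ± 0.48 (SE) on the log2 scale it was not called (adjusted p = 0.656, edgeR), and the 95% interval from -0.63 to 1.55 shows how little such counts can resolve.

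The 5 heavy chains kept 1 order of level per kilobase in all 5 libraries: Myh8, Myh1, Myh4, Myh2, Myh3. Averaged over libraries these levels were 4.34, 0.258, 0.182, 0.134 and 0.0495 CPM per kb. The ranges over libraries overlapped between Myh1 and Myh4 and between Myh4 and Myh2, and were apart between Myh8 and Myh1 and between Myh2 and Myh3. Myh8 supplied 88.0 ± 0.78% (SD, n = 3) of the skeletal heavy chain RNA in controls and 86.2 ± 1.02% (SD, n = 2) in mutants. These shares rest on the long deposited length of Myh8, and a shorter one would raise them. All 5 together made up 0.277%, 0.208% and 0.297% of striated heavy chain RNA in controls 2, 4 and 6, counted per kilobase with Myh13, Myh6, Myh7 and Myh7b, and 0.272% and 0.163% in mutants 5 and 7. Myh6, the main atrial heavy chain, held 87.8% to 88.7% in every library. Because the heavy chains share sequence, a read of an abundant copy placed on a rare one would matter most for the rare genes. Whether this occurred was not tested.

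**Figure D3:**
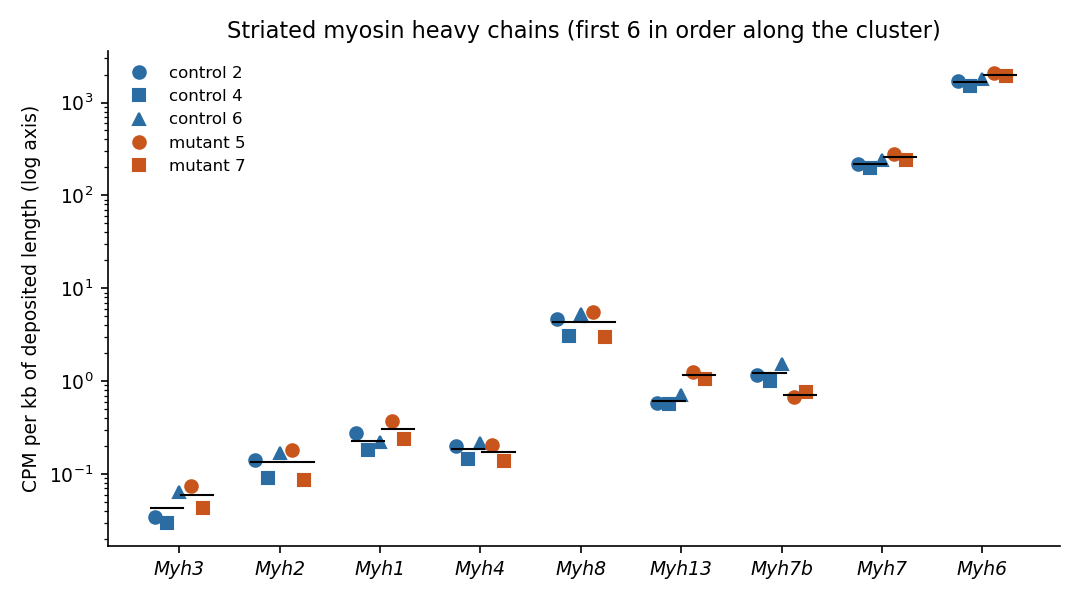
Level of 9 striated myosin heavy chains in each library, in CPM per kilobase of deposited length on a log axis, with the 6 genes of the skeletal cluster first, in their order on the chromosome, and a black line at each group mean. Control 4 and mutant 7 are low for Myh8, Myh2 and Myh4, and both mutants lie above the controls for Myh13.

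The neighbouring heavy chain passed the test. Myh13, a heavy chain known from the muscles that move the eye, lies next to Myh8 in the same cluster. It stood at 3.70 CPM in control 2, 3.55 in control 4 and 4.42 in control 6, against 7.87 in mutant 5 and 6.64 in mutant 7. Myh13 rose by 0.90 ± 0.15 on the log2 scale (SE; adjusted p = 0.0123, edgeR), a call lost without control 4 (0.0596). The difference between its fold change and those of the other heavy chains was not tested. Of the 50-base windows of Myh3, 169 also occur in Myh13. How much of Myh13 itself is shared with other genes was not counted, so the limit on shared reads holds for it too.

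Myl1, the essential light chain of fast fibres (ENSMUSG00000061816, chromosome 1, 66971611 to 66991479, mm9), was abundant in these atria. Its level was 672 CPM in control 2, 774 in control 4 and 555 in control 6, against 635 in mutant 5 and 649 in mutant 7. The mutants lay inside the control range, and the log2 fold change was -0.05 ± 0.13 (SE; adjusted p = 0.868, edgeR). Among the essential light chains Myl1, Myl3 and Myl4 it made up 14.2 ± 2.07% of the RNA per kilobase in controls (SD, n = 3) and 14.3 ± 0.90% in mutants (SD, n = 2). Myl4, the atrial form, supplied 82.4 ± 1.04% (SD, n = 3) and 85.1 ± 0.77% (SD, n = 2). Myl3, the form of ventricle and slow fibres, supplied 3.39 ± 1.27% (SD, n = 3) and 0.587 ± 0.124% (SD, n = 2), with both mutants below every control.

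Ckm, muscle creatine kinase (ENSMUSG00000030399, chromosome 7, 19999487 to 20006735, mm9), had the highest level of the 10. It stood at 2297 CPM in control 2, 2160 in control 4 and 2218 in control 6, against 2197 in mutant 5 and 1968 in mutant 7. The groups overlapped, and the log2 fold change of -0.10 ± 0.08 (SE; 95% interval -0.28 to 0.09) did not pass (adjusted p = 0.574, edgeR). Within the creatine kinases Ckm, Ckb, Ckmt1 and Ckmt2 its share per kilobase was 90.2 ± 1.09% in controls (SD, n = 3) and 87.0 ± 0.67% in mutants (SD, n = 2). Ckb, the brain form, rose by 0.47 ± 0.09 on the log2 scale (SE; adjusted p = 0.0180, edgeR), a call lost without mutant 5 (0.0560) or mutant 7 (0.0548). The antisense gene A930016O22Rik, which shares 451 exonic bases with Ckm, had 143 to 220 counts. These counts do not show how many Ckm reads on shared bases were lost or moved, because the strand setting is not named. The size of any such effect was not tested.

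Ordered by level per kilobase over all libraries, the 10 genes ran from Ckm (1532 CPM per kb) and Myl1 (249) through Pvalb (6.90), Myh8 (4.34), Actn3 (1.60) and Mylpf (1.59) to the rare heavy chains. Ckm lay above 99.9% of tested genes on this scale, Pvalb above 65.8% and Actn3 above 35.8%. In controls Pvalb (9.03 to 10.5 CPM per kb) was above Myh8 (3.07 to 5.33), and in mutants (2.36 and 3.20) it overlapped Myh8 (5.57 and 3.00). The place of Myh8 depends on its deposited length of 14428 bases, and a shorter length, such as its 5811 coding bases, would raise it. The control ranges of Actn3 (1.70 to 2.18 CPM per kb) and Mylpf (1.47 to 2.10) overlapped. In mutants Actn3 (0.856 and 1.17) lay below Mylpf (1.25 and 1.26).

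The genes also differed in how they varied from library to library. The distance used here is the Euclidean distance between log2 CPM profiles over the 5 libraries, each centred on its own mean, so that genes of unlike level can be compared. Myh8 and Myh2 were 0.14 apart and Myh8 and Myh4 0.30. Pvalb and Actn3 were 1.12 apart, Actn3 and Mylpf 0.62, and Pvalb and Myh8 2.21. Among 14299 other genes of at least 1 CPM, those most like Pvalb were Tuba3b (0.22), Arhgap20 (0.25) and Slc26a3 (0.26). Tuba3b, a tubulin gene, stood at 3.70 CPM in control 2, 3.04 in control 4 and 2.63 in control 6, against 0.705 in mutant 5 and 0.923 in mutant 7. Actn3 was closest to Dact2 (0.08), Ucp2 (0.11) and Xpnpep2 (0.19), and Mylpf to Prelp (0.07), Nnat (0.10) and Tsku (0.14). For Myh8 the closest were linc494 (0.11), Myh2 (0.14) and Gm5806 (0.16), and Myh2 was closest to linc494 (0.08), Myh8 (0.14) and Gm5806 (0.24). The nearest gene was Steap1 for Myh1 (0.16), Gm13217 for Myh4 (0.18), Gm10233 for Myl1 (0.06) and Nudt3 for Ckm (0.02). With 5 libraries and this many genes, close profiles are a description only.

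Other genes of fast skeletal muscle were examined next, from a list of 21 that holds none of the 10. Of 18 tested, 3 were higher, 0 lower and 15 did not pass, by edgeR. Over all tested genes, edgeR called 3.02% higher and 3.57% lower. At an unadjusted p under 0.05, 3 were higher and 1 lower, and DESeq2 and limma-voom each called 3 higher and 0 lower. The list median was 0.08, beside 0.01 over all genes. Summed levels of the list were 2271 to 2446 CPM in controls and 3489 to 3606 CPM in mutants, without overlap. Tnnt3 alone, whose levels are given below, supplied most of this difference. The sum is thus no sign of a rise across the list. The 3 rises were Tnnt3, Myoz1 and Myh13. Tnnt3, troponin T of fast fibres, stood at 32.7 to 88.6 CPM in controls, against 1020 CPM in mutant 5 and 1085 CPM in mutant 7. Its log2 fold change was 4.13 ± 0.50 (SE; adjusted p = 0.0324, edgeR). DESeq2 (adjusted p = 2.53e-14) and limma-voom (0.00152) also called Tnnt3. The edgeR call was kept without control 4 (0.0131) or control 6 (0.00425). Leaving out control 2 (0.174), mutant 5 (0.122) or mutant 7 (0.176), using no filter on low counts (0.0591) or adding sex as a covariate (0.0577) ended the call, at log2 fold changes of 4.08 to 4.18. Myoz1, a Z-disc protein that binds calcineurin, rose by 0.60 ± 0.11 (SE; adjusted p = 0.0182, edgeR), but not when control 4 (0.0621), control 6 (0.0558) or mutant 7 (0.0679) was left out. The list had 1 rise without control 4 or mutant 7. Without mutant 5 it had 2 rises and 1 fall, that of Casq1, the calcium store protein calsequestrin 1, named after its values were seen. Casq1 stood at 271 to 299 CPM in controls, 293 in mutant 5 and 169 in mutant 7, so that fall (log2 fold change -0.78, adjusted p = 0.00145, edgeR) rests on 1 mutant library, taken to vary like the controls. With both mutants its log2 fold change was -0.32 ± 0.24 (SE; adjusted p = 0.550, edgeR). Pgam2, Eno3 and Pygm, enzymes of muscle energy supply, did not pass, at log2 fold changes of 0.18, 0.05 and 0.12.

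The marker genes of skeletal muscle ranged from none detected to well expressed. Tnnc2, troponin C of fast fibres, had 1 count in control 2, 1 in mutant 7 and 0 in the other libraries. Cacng1, a subunit of the skeletal calcium channel, had at most 2 counts, and the release channel gene Ryr1 had 5 to 33. Myod1, the myogenic master regulator, had 0 counts in all 5 libraries, which allows a level of up to 0.0384 to 0.0509 CPM, counting 3 reads as the limit. Other fast fibre genes were clearly present: Tnni2, troponin I, at 17.1 to 26.2 CPM over all libraries, Mybpc2, a myosin-binding protein, at 9.66 to 13.8 CPM, and Acta1, skeletal actin, at 46.4 to 187 CPM. Acta1 lay higher in both mutants than in every control and did not pass (log2 fold change 0.98 ± 0.48 (SE), adjusted p = 0.389, edgeR). All of these genes are named after their values were seen. Of 15 genes of myogenic regulators, satellite cells and myoblast fusion, 9 were too low to test, with at most 11 counts in a library. Of the 6 tested, 0 passed edgeR, 1 was higher and 1 lower at an unadjusted p under 0.05, and DESeq2 and limma-voom called 0. The summed level of this list was 18.5 to 21.5 CPM in controls and 20.1 and 20.9 CPM in mutants.

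Genes of the neuromuscular junction formed the remaining muscle list. Of 11 genes, 7 were tested, of which 2 rose, 1 fell and 4 did not pass, with a median log2 fold change of 0.26. The shares called by edgeR over all tested genes were 3.02% higher and 3.57% lower. Summed levels of this list were 73.8 to 77.3 CPM in controls and 86.5 to 97.6 CPM in mutants, without overlap. Most of this difference came from Colq, with mean levels of 10.1 CPM in controls and 24.2 CPM in mutants. The sum is thus no sign of a rise across the list. Colq, the collagen tail that anchors acetylcholinesterase, stood at 9.63 to 10.8 CPM in controls, against 22.9 in mutant 5 and 25.6 in mutant 7. Both mutants were far above every control. Colq rose by 1.26 ± 0.10 on the log2 scale (SE; adjusted p = 4.05e-04, edgeR) and kept this call whichever library was left out. Ache, acetylcholinesterase itself, rose by 0.99 ± 0.17 (SE; adjusted p = 0.0108, edgeR), a call lost without control 4 (0.0522). Rapsn, which clusters acetylcholine receptors, fell by 0.59 ± 0.11 (SE; adjusted p = 0.0181, edgeR), but not when control 2 (0.0781), control 4 (0.0759) or mutant 7 (0.0639) was left out. The receptor subunit genes Chrnd, Chrne and Chrng and the kinase gene Musk had at most 12 counts and were not tested. With the myogenic list, 3 genes were called, and 1 without control 4. With sex as a covariate 4 were called, the added one being Eya4, a transcriptional cofactor (log2 fold change 1.18, adjusted p = 0.0328 by edgeR, beside 1.01 and 0.181 without the covariate).

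Genes of the cardiac sarcomere were counted in the same way. Of 16 tested, 0 passed edgeR, with a median log2 fold change of 0.01. For this list and those below, the shares called over all tested genes were 3.02% higher and 3.57% lower. At an unadjusted p under 0.05, 2 were higher and 2 lower, DESeq2 called 0 higher and 2 lower, and limma-voom called 0. Myl7, Myl4, Actc1 and Myh6 had log2 fold changes of -0.05, -0.01, 0.12 and 0.26. Csrp3, a Z-disc protein (-0.27), and Mybpc3, cardiac myosin-binding protein C (-0.19), had both mutants below every control. Csrp3 and Mybpc3 were named after their values were seen. Myh6, Actc1 and Actn2 (0.13) had both mutants above every control. Of all tested genes, 19.2% had both mutants below every control and 18.6% had both above. Tnnc1 was left out, since the table lists it under 2 identifiers, with at most 19 counts. Of 8 genes of slow fibres, several of which the heart shares, 2 fell, 0 rose and 6 did not pass, with a median log2 fold change of -0.84. At an unadjusted p under 0.05, 1 was higher and 4 lower, and DESeq2 called 3 lower and limma-voom 2, with 0 higher. Tnnt1, troponin T of slow fibres, fell by 0.89 ± 0.12 on the log2 scale (SE; adjusted p = 0.00586, edgeR) and kept its call whichever library was left out. Myl3, the essential light chain of slow fibres and ventricle, had the lowest fold change of this list. It stood at 67.2 to 145 CPM in controls, against 22.3 CPM in mutant 5 and 15.4 CPM in mutant 7, without overlap. Its log2 fold change of -2.57 ± 0.47 (SE) gave an adjusted p of 0.0764 by edgeR, 0.00966 by limma-voom and 1.94e-07 by DESeq2, and 0.00644 by edgeR without control 4. Myh7b, a slow heavy chain, fell by 0.79 ± 0.19 (SE; adjusted p = 0.0434, edgeR), but not when control 2, control 6, mutant 5 or mutant 7 was left out (adjusted p of 0.0898 or more) or with limma-voom (0.0677). Among relatives of the 10, 2 of 12 tested genes rose, Ckb and the non-muscle heavy chain Myh9, and 0 fell. Myh9 rose by 0.47 ± 0.09 (SE; adjusted p = 0.0189, edgeR), a call that ended without control 2 (0.0781), control 4 (0.0868) or control 6 (0.0517). Myh11, the heavy chain of smooth muscle, stood at 6.51, 9.14 and 2.03 CPM in the controls and at 29.7 and 27.7 CPM in the mutants, above every control. Its log2 fold change of 2.29 ± 0.67 (SE) did not pass (adjusted p = 0.188, edgeR). It was named after its values were seen, and the part of smooth muscle cells in the results was not tested. At an unadjusted p under 0.05, 5 of these 12 were higher and 1 lower, and DESeq2 and limma-voom called 3 higher and 0 lower each. No share over all tested genes was counted for the unadjusted rule, so its list counts have no background beside them.

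Markers of other tissues that lie near the atria were also counted, and their part in the results was not tested. Summed levels of the thymus list were 0.370 to 1.33 CPM in controls, with both mutants inside that range. The lung list summed to 0.672 to 1.66 CPM in controls, with 1 mutant inside that range and the other below it at 0.589 CPM. The brown fat gene Ucp1 had at most 1 count, and Krt5, Krt13 and Krt4 of squamous epithelium at most 7. Among these lists of other tissues, the summed levels of 3 did not overlap between the groups. The red blood cell list summed to 1113 to 1458 CPM in controls and 1751 and 1781 CPM in mutants. Of its 6 genes 1 passed, the globin gene Hba-a1, higher by 0.48 ± 0.09 on the log2 scale (SE, adjusted p = 0.0196 by edgeR). The Hba-a1 call was lost without control 2 (0.0814) or control 4 (0.0737). Over all tested genes, edgeR called 3.02% higher and 3.57% lower. At an unadjusted p under 0.05, 5 of the 6 were higher, and the share over all tested genes was not counted for that rule. Krt14, nearly all of the squamous list, fell by 0.57 ± 0.12 on the log2 scale (SE; adjusted p = 0.0243, edgeR). This call ended when control 4 (0.0896), control 6 (0.0799) or mutant 5 (0.0739) was left out and with sex as a covariate (0.0542). That list summed to 25.1 to 31.2 CPM in controls and 18.2 and 20.8 CPM in mutants, and the cartilage list, nearly all Comp, to 10.7 to 16.8 CPM and 6.16 to 9.18 CPM.

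The other lists of tissues near the atria overlapped in their sums, though single genes moved. Over all tested genes, edgeR called 3.02% higher and 3.57% lower. The fat list summed to 156 to 188 CPM in controls and 183 and 202 CPM in mutants. Of its 2 tested genes Cidea, a lipid droplet protein, was higher by 0.57 ± 0.12 on the log2 scale (SE; adjusted p = 0.0259, edgeR), but not without control 4 (0.104), control 6 (0.0840) or mutant 7 (0.0676). The ventricular list summed to 1936 to 2514 CPM in controls and 2317 and 2693 CPM in mutants, nearly all of it Myh7, which the atrium also expresses. Of its 5 genes 1 passed edgeR, the transcription factor Hey2, which rose by 2.59 ± 0.10 on the log2 scale (SE; adjusted p = 6.57e-06, edgeR). The list median was -1.49, and DESeq2 and limma-voom each called 1 gene higher and 1 lower. Beside Myl3, the light chain Myl2 had a log2 fold change of -1.74 ± 1.17 (SE), with groups that overlapped, and -0.53 without control 6. Irx4, a ventricular transcription factor, had -1.49 ± 0.67 (SE), with both mutants below every control at under 1 CPM. The list of autonomic neurons summed to 9.54 to 18.5 CPM in controls, with mutants inside that range at 17.4 and 17.9 CPM. By edgeR 0 of its 5 genes were called, 1 was higher at an unadjusted p under 0.05 and by DESeq2, and limma-voom called 0.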

How the data were processed

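PolyA RNA of postnatal day 1 atria was measured in 5 libraries (3 control, 2 mutant), each made from 250 ng of total RNA with a TruSeq kit, per the labels' protocols. The deposited table holds raw read counts for each gene in each library, RPKM values pooled to 1 per group, a log2 ratio, and a p-value and adjusted p-value per gene. The submitters' processing notes name mm9, TopHat2 2.0.4, HTSeq 0.5.4p3 and DESeq. The strand setting of the counting is not named there. Entries of the counting tool that name no gene (no_feature 3.97% to 6.03%, ambiguous 2.31% to 3.18% of counts) were left out.

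The 40624 genes entered edgeR 4.0.16 (R 4.3.3): filterByExpr (minimum count 10, minimum total 15), TMM scaling, a robust quasi-likelihood fit without covariate, and Benjamini-Hochberg adjustment over the 17835 genes kept, called under 0.05. Fold changes put mutants over controls (prior count 0.125), and each SE is their size over the root of F. The fit was tested on counts simulated in 2 ways. The first used each gene's own dispersion, and false calls made up more than the nominal share of calls. The simulation was then repeated with the smooth trend of dispersion over level, and false calls stayed under that share. The test itself was not changed between them, so calls near the threshold may be optimistic for genes of uneven spread. An exact two-sided permutation test of 2 against 3 libraries cannot go below p = 0.1. Alternatives were DESeq2 1.42.0, limma-voom (limma 3.58.1), other scalings, filters and a stricter threshold, sex as a covariate and leaving out each library. The 10 genes, the lists and the tests were chosen with earlier results of these data known. Named genes are the 10, the called and the 4 most abundant genes of each list (not all printed), and the 3 closest profiles per gene (prior count 2). GENCODE vM21 (GRCm38) served for sequence comparison only.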

Additional observations from a re-analysis of the deposited data

How the results depend on the processing

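Of the 10 genes, 0 were called higher under each of the 13 alternatives run. The 2 lower calls became 1 (Pvalb) at adjusted p under 0.01 and ranged from 1 to 2 when each library was left out. Pvalb kept its direction and its call under all 13 alternatives, with an adjusted p from 8.21e-25 (DESeq2) to 0.00534. Over all genes, the 538 higher calls became 157 at the stricter threshold and 919 with DESeq2, and 203 to 910 when each library was left out; the 636 lower calls became 234, 1028 and 306 to 804. The share of higher against lower calls was 538 to 636, and 449 to 799 with library totals alone. The fast skeletal list had 0 calls at the stricter threshold and 1 to 3 without each library, beside 3. The myogenic and junction genes had 1 and 1 to 3, beside 3, and 4 with sex as a covariate. Where 1 mutant is left out, the lone mutant is taken to vary like the controls. The summed level of the 5 heavy chains moved by less than the spread between replicates under other scalings (67.4 to 68.1 CPM in controls, 65.8 to 66.8 CPM in mutants). No paired analysis was possible because the groups share no replicate number. Counts of 12 to 40 limit what can be seen for Myh3.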
